A study of Homo sapiens with 12 samples.

Results

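The lysyl oxidases and the lysyl hydroxylases of collagen crosslinking were described across 2 rhabdomyosarcoma (RMS) cell lines with and without depletion of the histone demethylase KDM3A. The members were taken by symbol from the deposited table of gene expression, and all 8 were found among its 65975 gene identifiers: LOX, LOXL1, LOXL2, LOXL3 and LOXL4, which encode the 5 lysyl oxidases, and PLOD1, PLOD2 and PLOD3, which encode the 3 lysyl hydroxylases. RD is a line of fusion-negative RMS (FN-RMS), and Rh30 (SJRH30) is a line of fusion-positive RMS (FP-RMS). Each line was transduced with lentivirus that carried either a control shRNA (Scramble) or 1 shRNA against KDM3A (KDM3A-sh2), and cells were selected with puromycin at 1 ug/ml. Directional libraries of polyA RNA were sequenced from each of the 4 groups, with 3 libraries in each. RD cells were grown in DMEM and Rh30 cells in RPMI, with the same supplements, so the line and the medium cannot be told apart, and each RMS subtype is represented by 1 line. Nothing in the labels or the Methods ties the 3 libraries of a group to independent cultures, so p-values measure only the spread between these libraries. The sample titles number the 3 Rh30 Scramble libraries as separate replicates, but their column names all end in the same number, unlike those of the other groups, so they may stem from 1 culture or RNA sample, and every Rh30 comparison rests on them. They correlated at 0.9942 to 0.9943 across genes, within the 0.9937 to 0.9947 of all groups.

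Lysyl oxidases are secreted, copper-dependent amine oxidases that oxidise lysine and hydroxylysine side chains of collagen and elastin, the first step of covalent crosslinking in the extracellular matrix. LOX and LOXL1 are close in structure and carry propeptides that are removed outside the cell, whereas LOXL2, LOXL3 and LOXL4 carry scavenger receptor cysteine-rich domains. Lysyl hydroxylases act earlier, in the endoplasmic reticulum, and convert lysines of procollagen to hydroxylysines, which decides the chemistry of the later crosslinks. Matrix crosslinking has been tied to stiffening of tumours and to invasion, and LOX, LOXL2 and PLOD2 are known to be induced by low oxygen.

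The upstream sequences of LOX, PLOD2 and LOXL4 are shown because LOX and PLOD2 were the members that rose with KDM3A-sh2 in RD cells and fell in Rh30 cells, while LOXL4 fell in both lines. Sequences are from RefSeq (GRCh38.p14) and are written on the minus strand, on which these genes lie, in the direction of transcription. Capitals mark ACGTG, the core of the element through which hypoxia-inducible factors are known to bind, on either strand (CACGT is its reverse complement). From LOX come chr5:122078361-122078509, which ends where the first annotated exon begins, and the short stretches chr5:122078343-122078367 and chr5:122078287-122078311 closer to the RefSeq start. From PLOD2 comes chr3:146161185-146161434, and from LOXL4 chr10:98268251-98268444.
LOX upstream of the first exon: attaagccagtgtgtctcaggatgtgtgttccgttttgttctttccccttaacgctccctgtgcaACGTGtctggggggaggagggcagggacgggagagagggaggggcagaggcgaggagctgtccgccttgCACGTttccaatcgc
LOX around the third ACGTG: caatcgcattACGTGaacaaatagc
LOX around the fourth ACGTG: aactttgcaaACGTGccagaaagtt
PLOD2 upstream: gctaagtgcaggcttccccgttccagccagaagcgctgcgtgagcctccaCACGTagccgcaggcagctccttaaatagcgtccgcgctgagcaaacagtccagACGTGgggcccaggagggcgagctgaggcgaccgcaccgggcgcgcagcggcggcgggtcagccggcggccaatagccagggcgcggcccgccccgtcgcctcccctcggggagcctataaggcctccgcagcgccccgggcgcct
LOXL4 upstream: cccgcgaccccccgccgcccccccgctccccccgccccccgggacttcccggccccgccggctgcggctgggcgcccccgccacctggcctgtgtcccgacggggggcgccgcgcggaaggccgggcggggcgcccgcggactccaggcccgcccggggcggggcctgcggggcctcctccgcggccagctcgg

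In the 250 bases before the RefSeq start numbered 1 for each gene, ACGTG occurred 4 times in LOX and 2 times in PLOD2. It did not occur in LOXL1, LOXL3, LOXL4, PLOD1 or PLOD3, and a promoter of LOXL2 was not used here. Of all 35116 promoters in the RefSeq table, 18.5% held at least 1 ACGTG in that window, 2.61% at least 2 and 0.0911% at least 4. LOX has further RefSeq starts, numbered 2 and 3, whose windows overlap and held 1 ACGTG each. Of the 4 matches at start 1 of LOX, 2 lay before the annotated exons and the rest within the annotated gene. The window of PLOD2 lay outside exons but inside the annotated span of the gene (146069440 to 146163653). The ETS core CCGGAA (14.5% of all promoters) and the TATA box TATAAA (10.7%) were searched on both strands as well and occurred in none of the first promoters of the 7 members. The share of G and C in the window was 55.2% for LOX, 72.4% for PLOD2 and 86.4% for LOXL4, and the median of all promoters was 58.0%. These matches describe letters and not bound sites, and the low-oxygen element was chosen with results of these data known.

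The libraries held summed values of 1198300 to 1379197 FPKM (fragments per kilobase of transcript, scaled to the mapped fragments of the library), and 17473 to 17983 genes reached 1 FPKM. Read counts were not used here. From the spacing of low values, the relative depth of the libraries was estimated at 0.871 to 1.21 times their median, with RD Scramble at 1.06 to 1.21 and RD KDM3A-sh2 at 0.871 to 1.00. KDM3A, the target of the shRNA, stood at 33.5 ± 2.50 (Scramble) and 12.2 ± 1.09 FPKM (KDM3A-sh2) in RD, and at 29.7 ± 2.14 and 14.1 ± 1.15 FPKM in Rh30 (SD, n = 3 each). Of the 5 markers of skeletal muscle and RMS, MYOD1, MYOG, DES and CHRNA1 were above 1 FPKM in every group and MYF5 in none. Markers of blood cells were below 1 FPKM in all groups (0 of 5), with HBB listed at 0, and of 5 endothelial markers TEK alone reached 1 FPKM. Of 5 epithelial markers, KRT8 and KRT18 reached 1 FPKM in RD, and EPCAM as well in Rh30. Their summed level was 45.6 to 50.7 FPKM in RD Scramble and 11.4 to 12.2 FPKM in Rh30 Scramble.

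With Scramble, all 8 members were lower in Rh30 than in RD cells. The gap was widest for LOX, which was the highest member in RD and the lowest in Rh30. It was narrow for PLOD1, LOXL2 and LOXL1. By limma on log2(FPKM + 1), which was fitted over 18367 genes with Benjamini-Hochberg adjustment, 8 of 8 members passed an adjusted p of 0.05 as lower in Rh30 and 0 as higher, against 39.6% and 34.9% of all genes tested.

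LOX, the founding member of the family, was expressed in RD Scramble libraries at 365.1, 351.9 and 342.3 FPKM, and in Rh30 Scramble libraries at 8.31, 8.02 and 9.32 FPKM. The ratio of the means was 41.3-fold, and the log2 difference was -5.21 (standard error 0.06, adjusted p = 6.05e-09 from limma). LOXL4 was at 110.2, 112.0 and 116.5 FPKM in RD and at 8.67, 8.77 and 8.67 FPKM in Rh30, which is 13.0-fold lower in the latter. LOXL3 was at 181.7, 181.4 and 196.7 FPKM in RD and at 22.5, 20.05 and 19.7 FPKM in Rh30, a ratio of 9.00. No Rh30 library came near any RD library in these 3 genes. KRT18, the highest epithelial marker, ran the same way between the lines, at 43.7 FPKM in RD Scramble and 4.66 FPKM in Rh30 Scramble (log2 difference -2.98). EPCAM ran the other way (0.577 and 4.63 FPKM, log2 difference 1.84), and KRT8 was not called (-0.15, adjusted p = 0.42 from limma). The fibroblast markers summed to 308 to 326 FPKM in RD Scramble and 12.4 to 15 FPKM in Rh30 Scramble. Of these, THY1, LUM, FAP and DCN were lower in Rh30, and PDGFRA was higher (0.273 and 5.74 FPKM). The part of these markers was not tested. LOXL2 and LOXL1 differed less between the lines, with log2 differences of -0.74 (standard error 0.05) and -0.79 (0.07). Among the lysyl hydroxylases, PLOD3, which also glycosylates hydroxylysine, and PLOD2, which hydroxylates the collagen telopeptides, were lower in Rh30 by log2 differences of -1.18 (0.05) and -1.17 (0.10). PLOD1, the main hydroxylase of the collagen helix, had the smallest difference of the 8 (-0.49, standard error 0.05). Adjusted p-values of these 5 genes from limma were between 1.16e-06 (PLOD3) and 0.000155 (PLOD1).

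**Figure D1:**
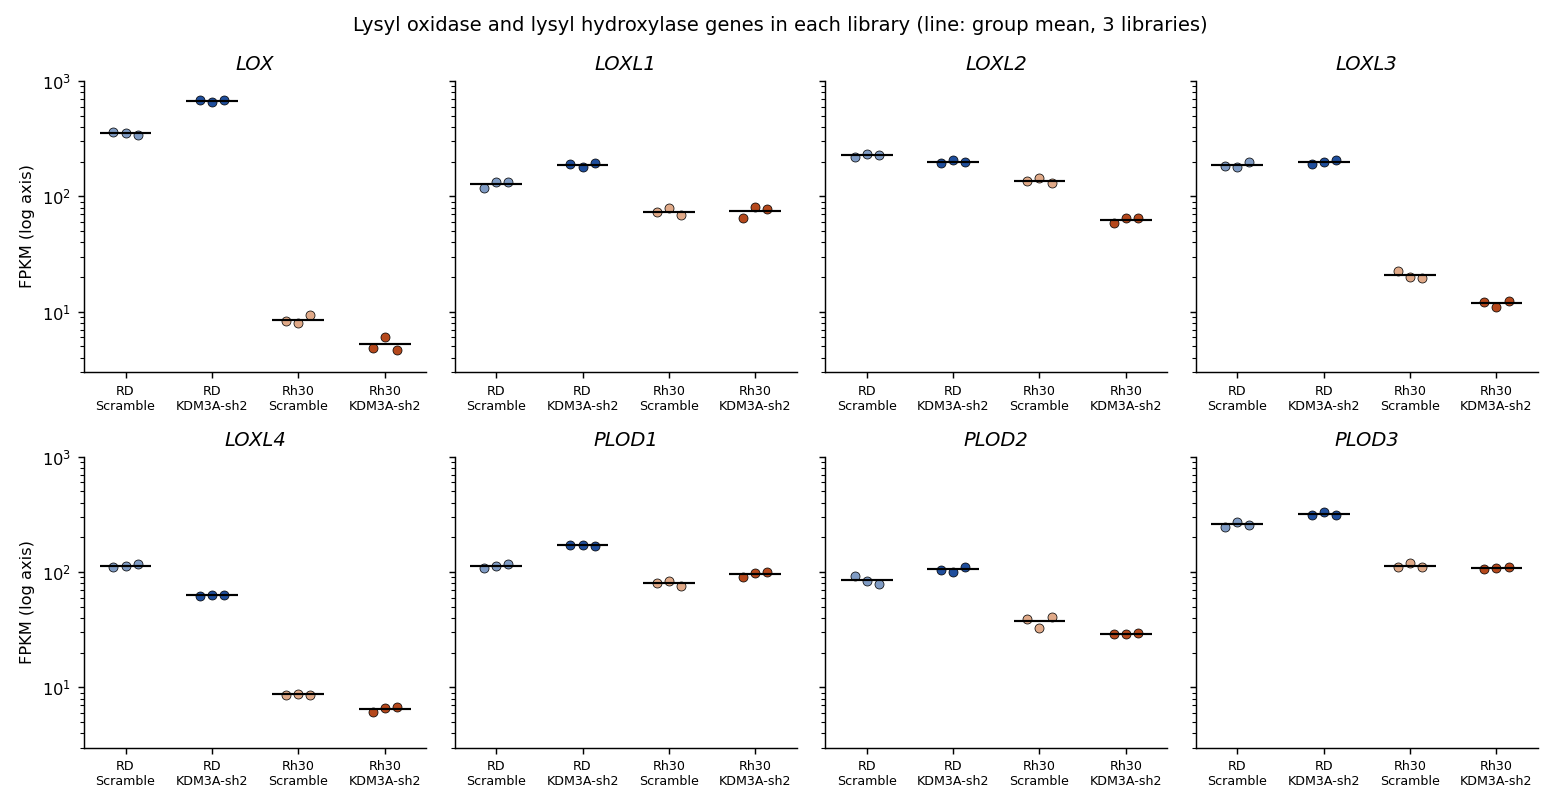
FPKM (log axis) of each of the 8 members in every library of the 4 groups, with a line at the mean of 3 libraries. LOX spans from 4.65 FPKM in Rh30 with KDM3A-sh2 to 689.5 FPKM in RD with KDM3A-sh2, and all 8 members are lower in Rh30 Scramble than in RD Scramble.

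FPKM are per transcript length, so the members can be ordered within a group. In RD Scramble the order from the top was LOX, PLOD3, LOXL2, LOXL3, LOXL1, LOXL4, PLOD1 and PLOD2, and only LOXL4 and PLOD1, with equal means of 112.9 FPKM, overlapped as neighbours. In Rh30 Scramble it was LOXL2, PLOD3, PLOD1, LOXL1, PLOD2, LOXL3, LOXL4 and LOX. There PLOD1 (80.4 ± 4.40 FPKM) overlapped with LOXL1 (73.9 ± 5.37 FPKM), and LOXL4 (8.70 ± 0.06 FPKM) with LOX (8.55 ± 0.68 FPKM; SD, n = 3 each). With KDM3A-sh2 the lead of LOX in RD widened, LOXL2, LOXL3 and LOXL1 (199.0, 198.8 and 187.9 FPKM) overlapped as neighbours and LOXL4 became the lowest member. With KDM3A-sh2 in Rh30, PLOD3 led at 108.8 FPKM, LOXL1 (74.2 FPKM) and LOXL2 (62.9 FPKM) overlapped, and LOX stayed the lowest at 5.20 FPKM. Among genes of at least 1 FPKM, LOX stood above 97.0% of the others in RD Scramble and above 36.8% in Rh30 Scramble.

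In RD cells with KDM3A-sh2, LOX, LOXL1 and all 3 PLOD genes were upregulated, and LOXL4 and LOXL2 were downregulated. The mean of LOX rose 1.91-fold and that of LOXL4 fell 1.79-fold. Of the 8 members, 5 were called higher and 2 lower at an adjusted p of 0.05, against 21.6% and 19.5% of all 18001 genes tested by limma. The median log2 fold change of the members was 0.31, and that of all genes 0.01.

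LOX was at 681.1, 657.2 and 689.5 FPKM in the RD KDM3A-sh2 libraries. Every one of these lay above every Scramble library, the highest of which held 365.1 FPKM. The mean rose from 353.1 ± 11.5 to 675.9 ± 16.8 FPKM (SD, n = 3 each), far beyond the spread of either group (log2 fold change 0.94, standard error 0.04, adjusted p = 1.25e-05 from limma). LOXL1, which is needed for elastic fibres, rose from 117.4, 133.2 and 133.9 FPKM to 190.4, 178.1 and 195.3 FPKM, and the groups did not overlap (log2 fold change 0.55, standard error 0.06, adjusted p = 0.000629). LOXL4 moved the other way, from 110.2, 112.0 and 116.5 FPKM to 62.1, 63.7 and 63.6 FPKM. The KDM3A-sh2 libraries were within 2 FPKM of each other and far below the Scramble libraries (log2 fold change -0.83, standard error 0.04, adjusted p = 1.95e-05). LOXL2, which crosslinks collagen IV among other substrates, fell little, by 0.19 on the log2 scale (standard error 0.04, adjusted p = 0.00894), with Scramble libraries at 218.4 to 234.6 FPKM and KDM3A-sh2 libraries at 192.8 to 205.3 FPKM. LOXL3 ranged over 181.4 to 196.7 FPKM in Scramble libraries and 192.0 to 207.0 FPKM in KDM3A-sh2 libraries, which overlapped. Its log2 fold change of 0.09 was not called (95% interval -0.02 to 0.20, adjusted p = 0.165).

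PLOD1 had the largest rise of the lysyl hydroxylases in RD, from 108.4, 112.1 and 118.3 FPKM to 172.8, 170.4 and 168.2 FPKM, a 1.51-fold rise without overlap (log2 fold change 0.59, standard error 0.04, adjusted p = 8.79e-05). PLOD3 rose from 248.0, 273.5 and 254.6 FPKM to 311.8, 333.0 and 314.1 FPKM (log2 fold change 0.30, standard error 0.05, adjusted p = 0.00243). PLOD2 rose from 93.0, 84.0 and 78.3 FPKM to 105.0, 101.0 and 111.5 FPKM (log2 fold change 0.31, standard error 0.07, adjusted p = 0.0109). In both genes the lowest KDM3A-sh2 library was above the highest Scramble library, although for PLOD2 the gap was 93.0 against 101.0 FPKM. The spliced forms of PLOD2 are summed in a value per gene and were not told apart.

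The summed level of 5 fibroblast markers moved with the shRNA in RD, where it was 308 to 326 FPKM in Scramble libraries and 409 to 446 FPKM in KDM3A-sh2 libraries. Of the 5, THY1, LUM, FAP and DCN were above 1 FPKM and PDGFRA was at 0.27 and 0.30 FPKM. LUM, which encodes lumican, rose from 20.7 to 71.9 FPKM. The part of these genes in the changes of the family was not tested. In bulk RNA, more cells of a kind and more RNA per cell cannot be told apart.

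In Rh30 cells with KDM3A-sh2, 4 of the 5 lysyl oxidases were downregulated, LOXL2 most of all, and LOXL1 stayed within the spread of the libraries. The lysyl hydroxylases moved little and not together. Of the 8 members, 5 were called lower and 1 higher, against 13.2% and 15.3% of all 17811 genes tested by limma. Their median log2 fold change was -0.36, and that of all genes 0.03.

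In Rh30, LOXL2 went from 134.7, 143.2 and 129.4 FPKM to 59.3, 64.3 and 65.1 FPKM. The means differed 2.16-fold and the groups lay far apart (log2 fold change -1.10, standard error 0.06, adjusted p = 9.65e-05 from limma). LOXL3, which is known for its part in the development of the palate and spine, fell from 22.5, 20.05 and 19.7 FPKM to 12.1, 11.1 and 12.4 FPKM (log2 fold change -0.75, standard error 0.07, adjusted p = 0.000808). LOX fell from 8.31, 8.02 and 9.32 FPKM to 4.87, 6.08 and 4.65 FPKM, a 1.65-fold drop of a gene that was already low. The groups did not overlap (log2 fold change -0.63, standard error 0.11, adjusted p = 0.00749). LOXL4 fell from 8.67, 8.77 and 8.67 FPKM to 6.11, 6.68 and 6.79 FPKM (log2 fold change -0.37, standard error 0.07, adjusted p = 0.00969). At levels such as these, adding 1 to each FPKM before the logarithm makes the fold change smaller than the ratio of the means, which was 1.33 for LOXL4. LOXL1 read 73.1, 79.6 and 68.9 FPKM in Scramble libraries and 64.9, 80.2 and 77.3 FPKM in KDM3A-sh2 libraries. The second group spanned the whole of the first, with a log2 fold change of 0.00 (95% interval -0.21 to 0.22, adjusted p = 0.989), and the sign of this value changed in 6 of 14 alternative analyses.

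PLOD1 rose in Rh30 as well, from 81.1, 84.4 and 75.7 FPKM to 90.4, 97.8 and 99.4 FPKM (log2 fold change 0.25, standard error 0.06, adjusted p = 0.0187). PLOD2 fell from 38.9, 32.8 and 40.5 FPKM to 28.9, 28.9 and 29.7 FPKM (log2 fold change -0.34, standard error 0.08, adjusted p = 0.0212). Neither gene's groups overlapped, but the calls were not firm. PLOD1 lost its call in 5 of 14 alternative analyses (adjusted p up to 0.0621) and PLOD2 in 7 of 14 (adjusted p up to 0.0869), including without Scramble replicate 1 and without KDM3A-sh2 replicate 2 or 3 for both, and also without Scramble replicate 3 or KDM3A-sh2 replicate 1 for PLOD2. PLOD3 ranged over 109.9 to 119.2 FPKM in Scramble libraries and 105.8 to 111.4 FPKM in KDM3A-sh2 libraries, overlapping ranges with a log2 fold change of -0.06 (95% interval -0.16 to 0.05, adjusted p = 0.372). The summed fibroblast markers were at 12.4 to 15 FPKM and 15.5 to 18.3 FPKM in the 2 groups of Rh30 libraries. PDGFRA (5.74 and 8.24 FPKM, adjusted p = 0.0219 from limma) and LUM (1.69 and 2.76 FPKM, adjusted p = 0.0306) were called higher. THY1 had a lower mean with KDM3A-sh2 (5.79 and 5.01 FPKM) and was not called (adjusted p = 0.363). FAP and DCN were too low to be tested. KRT18 was called lower with KDM3A-sh2, at 4.66 and 3.49 FPKM (adjusted p = 0.0371 from limma). EPCAM (4.63 and 6.03 FPKM) and KRT8 (2.52 and 2.93 FPKM) had higher means with KDM3A-sh2 and were not called. The epithelial markers summed to 11.4 to 12.2 FPKM and 11.3 to 13.4 FPKM, overlapping ranges. The part of these markers was not tested here either.

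**Figure D2:**
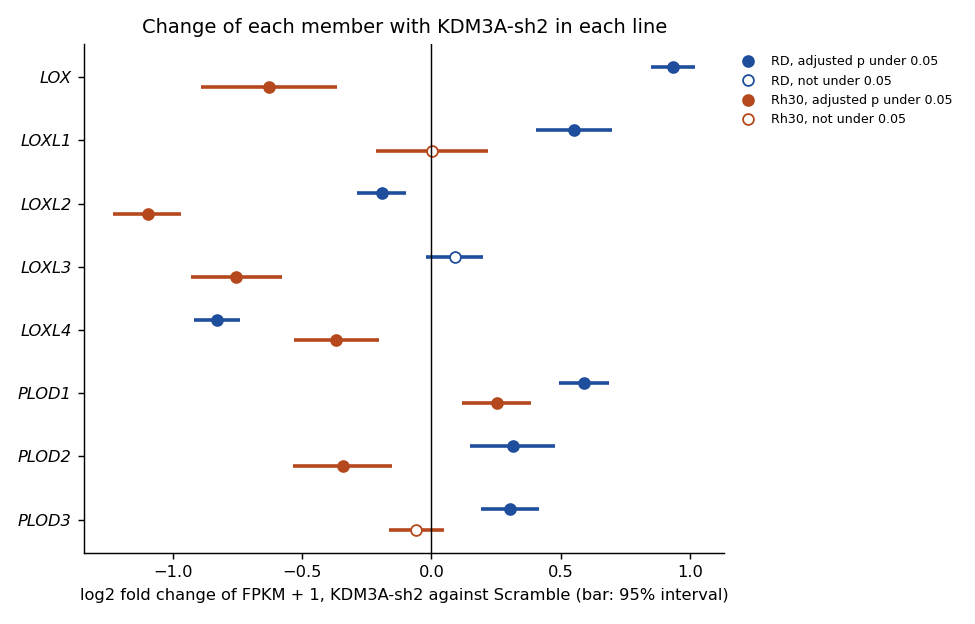
Log2 fold change of FPKM + 1 with KDM3A-sh2 against Scramble for each member, in RD (blue) and Rh30 (brown), with 95% intervals as bars and filled points for an adjusted p under 0.05. LOX stands at 0.94 in RD and -0.63 in Rh30, and LOXL4 is the only member with the larger drop in RD (-0.83 against -0.37).

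Whether the effect of KDM3A-sh2 differed between the lines was tested in limma by the interaction of line and shRNA, with all 12 libraries and 18532 genes in the fit, where a negative value means that Rh30 fell more or rose less. All 8 members passed an adjusted p of 0.05, with 7 negative and 1 positive. Over all genes 13.5% were negative and 14.4% positive, and with libraries rescaled to a common sum (a TPM scale) the counts of all genes went from 2669 positive and 2493 negative to 2097 and 3055. The 8 calls held in all 19 alternative analyses of this comparison.

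The difference was widest for LOX (-1.56, standard error 0.11, adjusted p = 4.49e-06), which rose in RD and fell in Rh30. PLOD2 was the other member called in opposite directions, and its 2 fold changes differed by -0.66 (standard error 0.11, adjusted p = 0.00155), although its call in Rh30 was lost in 7 of 14 alternatives. LOXL3 differed by -0.85 (standard error 0.09, adjusted p = 4.71e-05), with a drop called in Rh30 and none in RD. LOXL2 fell in both lines and more in Rh30 (difference -0.90, standard error 0.07, adjusted p = 7.41e-06). LOXL4 fell in both lines and more in RD, the only positive difference of the family (0.46, standard error 0.06, adjusted p = 0.000322). The differences of LOXL1 (-0.55), PLOD3 (-0.36) and PLOD1 (-0.34) came from rises in RD that were smaller in Rh30 or not called there. KDM3A itself fell more in RD than in Rh30 in this test (difference 0.37, adjusted p = 0.0387), a call lost in 12 of 19 alternatives. RD and Rh30 also differed in medium, so these values compare the 2 cultures.

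The make-up of the family changed with these shifts. The 5 lysyl oxidases summed to 1008 ± 13.9 FPKM in RD Scramble and 1325 ± 26.9 FPKM in RD KDM3A-sh2, and to 247.6 ± 11.8 and 160.7 ± 11.6 FPKM in Rh30 (SD, n = 3 each). The sum was higher with KDM3A-sh2 in RD and lower in Rh30, without overlap in either line. LOX made up 35.0 ± 1.62% of the sum in RD Scramble and 51.0 ± 0.59% in RD KDM3A-sh2, while LOXL2 went from 22.6 ± 0.58% to 15.03 ± 0.65% and LOXL4 from 11.2 ± 0.20% to 4.77 ± 0.11%. In Rh30 LOX stayed at 3.47 ± 0.44% and 3.24 ± 0.41%, overlapping ranges. LOXL2 went from 54.8 ± 0.34% to 39.2 ± 1.03% there and LOXL1, whose level did not pass the test, from 29.8 ± 0.76% to 46.1 ± 1.84%. LOXL1 thereby became the leading lysyl oxidase of Rh30, although its level with KDM3A-sh2 (64.9 to 80.2 FPKM) overlapped with that of LOXL2 (59.3 to 65.1 FPKM).

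The ratio of LOXL1 to LOXL2 within a library was 0.54 ± 0.01 in Rh30 Scramble and 1.18 ± 0.08 in Rh30 KDM3A-sh2, and 0.56 ± 0.02 and 0.95 ± 0.07 in RD (SD, n = 3 each). This ratio rose in both lines without overlap, from starting values that were alike. The ratio of LOX to LOXL4 was 3.13 ± 0.19 in RD Scramble and 10.7 ± 0.34 in RD KDM3A-sh2. The same ratio in Rh30 was 0.98 ± 0.08 and 0.80 ± 0.11, with library values of 0.92 to 1.07 and 0.68 to 0.91 that did not overlap. The 3 lysyl hydroxylases summed to 456.7 ± 11.2 and 595.9 ± 7.63 FPKM in RD, and to 231.1 ± 5.14 and 233.8 ± 7.84 FPKM in Rh30, where the ranges overlapped. PLOD2 made up 16.2 ± 2.10% of this sum in Rh30 Scramble and 12.5 ± 0.31% in Rh30 KDM3A-sh2. PLOD1 went from 34.8 ± 1.16% to 41.0 ± 0.73% in the same libraries.

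**Figure D3:**
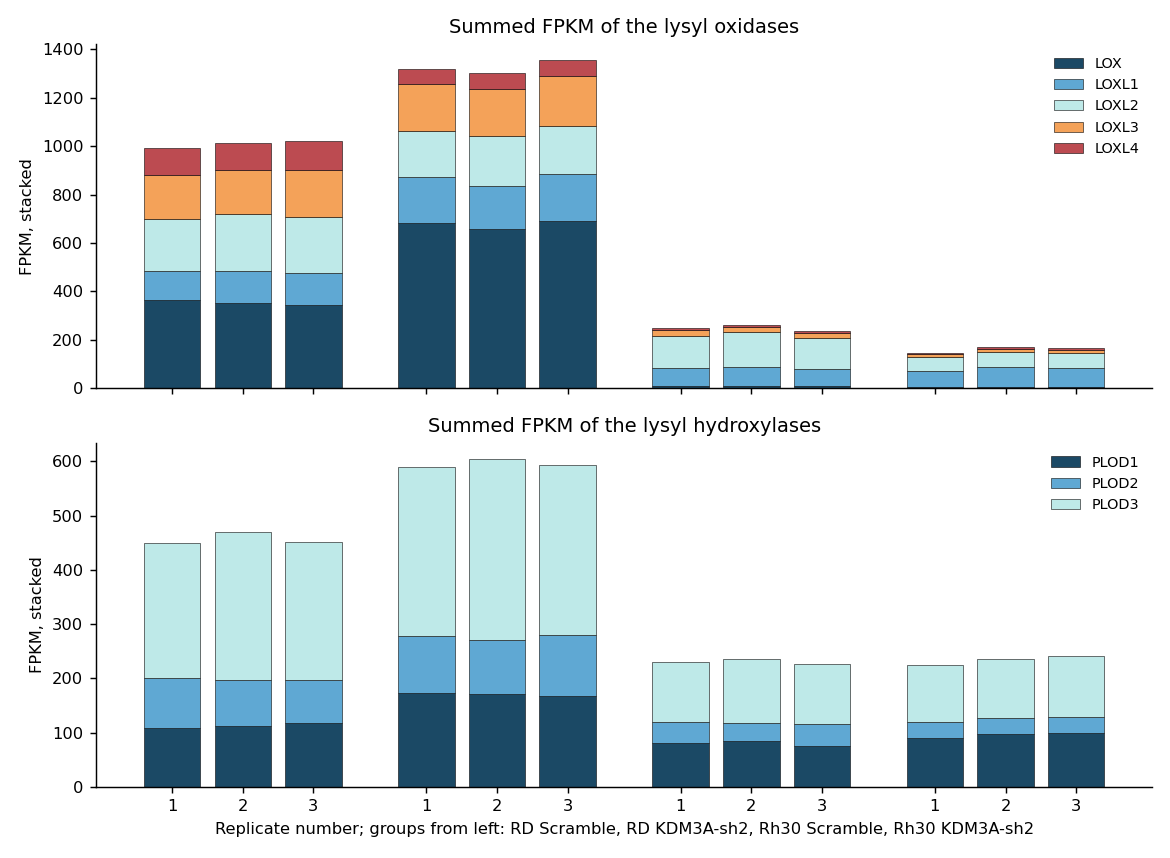
FPKM of the 5 lysyl oxidases (top) and the 3 lysyl hydroxylases (bottom) stacked in each of the 12 libraries, from left RD Scramble, RD KDM3A-sh2, Rh30 Scramble and Rh30 KDM3A-sh2. LOX fills 35.0% of the lysyl oxidase bars in RD Scramble and 51.0% in RD KDM3A-sh2, and 3.47% and 3.24% in the groups of Rh30.

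Other genes of collagen synthesis and crosslinking were read from lists that were chosen with earlier results of these data known. They are described by counts, to be set against the shares of all genes given above. Of 9 partners of the lysyl hydroxylases, collagen glycosyltransferases and collagen chaperones, 7 rose and 1 fell in RD, with a median log2 fold change of 0.61. FKBP14, a peptidyl-prolyl isomerase of the endoplasmic reticulum, rose from 59.6 ± 5.32 to 121.8 ± 3.41 FPKM, and COLGALT2, a collagen galactosyltransferase, from 2.87 ± 0.08 to 6.22 ± 0.19 FPKM. In Rh30, 0 of 8 tested rose and 2 fell. These were SERPINH1, the collagen chaperone HSP47, from 204.3 ± 7.25 to 148.1 ± 2.12 FPKM, and TMEM38B, an ion channel. TMEM38B went from 23.2 ± 1.46 to 18.9 ± 1.28 FPKM. SERPINH1 was also the gene that fell in RD (log2 fold change -0.21). All 9 genes of this list had a lower fold change in Rh30 than in RD by the interaction test (median -0.57). For COLGALT2 this only restates its rise in RD. It was at 0.11 and 0.10 FPKM in the Rh30 groups, too low to be tested there or to fall further.

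Of 9 genes of collagen prolyl hydroxylation, 7 rose and 1 fell in RD, and 3 rose and 4 fell of 8 tested in Rh30. P4HA1, the catalytic subunit of a prolyl 4-hydroxylase, moved in opposite directions as LOX and PLOD2 did. It rose in RD by 0.65 on the log2 scale, with means of 71.1 ± 2.67 and 111.8 ± 0.61 FPKM. In Rh30 it fell by 0.44, with means of 52.6 ± 0.86 and 38.5 ± 0.99 FPKM. P3H2, a prolyl 3-hydroxylase, rose in RD from 45.4 ± 4.77 to 82.8 ± 6.07 FPKM. P4HA2 rose in Rh30 from 152.9 ± 1.69 to 188.5 ± 3.18 FPKM (SD, n = 3 each), and was called higher in RD too (log2 fold change 0.50).

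Among the substrates, 7 of 10 tested chains of fibril-forming collagens rose and 2 fell in RD, and 3 rose and 3 fell of 9 in Rh30. COL2A1, the chain of cartilage collagen, fell in both lines. Its means were 40.5 ± 2.99 and 8.75 ± 1.04 FPKM in the RD groups and 175.9 ± 11.2 and 85.7 ± 5.48 FPKM in the Rh30 groups. COL1A1 rose in RD, where its means were 124.8 and 303.3 FPKM (1.28 on the log2 scale, adjusted p = 1.24e-05), and fell in Rh30, where they were 12.6 and 5.86 FPKM (-0.97, adjusted p = 0.0101). Its partner chain COL1A2 rose in RD as well, with means of 0.74 and 4.37 FPKM (1.61 on the log2 scale, adjusted p = 0.000376). In Rh30 the means of COL1A2 were 0.98 and 1.49 FPKM, and it was not called (0.35, adjusted p = 0.215 from limma). COL3A1, named after its values were seen, rose in both lines, by 0.23 in RD and 0.76 in Rh30 on the log2 scale. Its means were 2889 and 3385 FPKM in RD and 24.3 and 41.8 FPKM in Rh30. The basement membrane chains COL4A1 and COL4A2 fell in both lines, with COL4A2 at 465.9 ± 6.28 and 371.0 ± 15.2 FPKM in the RD groups and at 299.9 ± 21.6 and 241.3 ± 8.04 FPKM in the Rh30 groups. COL4A1 was at 360.6 and 312.7 FPKM in RD, and at 186.0 and 144.9 FPKM in Rh30. The third tested chain of collagen IV did not pass in either line.

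Of 13 tested proteins of elastic fibres and lysyl oxidase scaffolds, 7 rose and 4 fell in RD, and 3 rose and 2 fell in Rh30. LTBP4, which helps elastic fibres to assemble, fell in RD from 28.2 ± 2.47 to 12.5 ± 1.63 FPKM, and MFAP5 rose from 1.11 ± 0.55 to 3.33 ± 0.53 FPKM. In Rh30 FBN2, a fibrillin, fell from 30.7 ± 0.38 to 16.3 ± 0.97 FPKM. MFAP4, a binding partner of elastin and collagen, rose there from 85.5 ± 5.88 to 154.8 ± 1.32 FPKM. Both were called in the same direction in RD (log2 fold changes of -0.71 and 0.98). Neither passed the interaction test of limma (adjusted p = 0.166 and 0.444). ELN, the elastin gene and a substrate of LOX and LOXL1, was named here after its values were seen. It was at 0.07 and 0.20 FPKM in the RD groups and at 58.8 and 72.8 FPKM in the Rh30 groups, so the line with low LOX was the one with elastin RNA. FN1, fibronectin, was named in the same way and rose in RD, with means of 1539 and 2958 FPKM (0.94 on the log2 scale, adjusted p = 1.24e-05), against 195.6 and 212.2 FPKM in Rh30 (0.12, adjusted p = 0.0793).

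Of the 8 genes of copper supply, 5 rose in RD and 1 in Rh30, and 0 fell in either. Over all genes tested, 21.6% were called higher and 19.5% lower in RD, and 15.3% and 13.2% in Rh30. SLC31A2, a copper transporter, rose in RD from 53.0 ± 1.2 to 85.6 ± 1.56 FPKM and STEAP3, a metalloreductase, from 29.3 ± 0.72 to 40.9 ± 0.67 FPKM. ATOX1, the copper chaperone that hands the metal to the secretory pathway, rose in Rh30 from 155.8 ± 7.79 to 177.5 ± 5.24 FPKM. It was among the genes that rose in RD as well (log2 fold change 0.34). Of the proteases and enhancers that trim procollagens, 3 rose and 1 fell of 7 tested in RD, and 1 of 8 rose in Rh30. PCOLCE, an enhancer of procollagen C-proteinase, fell in RD from 65.7 ± 0.81 to 27.4 ± 2.72 FPKM, and ADAMTS14 rose from 3.72 ± 0.41 to 8.27 ± 0.47 FPKM. FURIN, a proprotein convertase, rose in Rh30 from 14.5 ± 1.11 to 23.4 ± 2.53 FPKM, and it rose in RD as well (log2 fold change 0.94). BMP1, the protease known to release the LOX propeptide, was named after its values were seen, and it rose in RD, with means of 39.9 and 57.3 FPKM (0.51 on the log2 scale, adjusted p = 0.000247), and was at 9.32 and 9.31 FPKM in Rh30. PXDN, the peroxidase that forms sulfilimine bonds in collagen IV and the only other matrix crosslinker that was tested, fell in Rh30 from 449.7 ± 23.9 to 319.0 ± 19.7 FPKM and was at 301.9 and 307.6 FPKM in RD.

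Of 9 tested hypoxia-inducible genes, 4 rose and 1 fell in RD, and 0 rose and 4 fell in Rh30. PDK1 and VEGFA rose in RD, from 5.49 ± 0.51 to 7.81 ± 0.59 FPKM and from 30.2 ± 1.81 to 37.9 ± 1.99 FPKM. EGLN3, a prolyl hydroxylase of hypoxia-inducible factors, fell in Rh30 from 61.6 ± 0.84 to 24.3 ± 0.94 FPKM. SLC2A1, a glucose transporter, fell there from 101.2 ± 6.94 to 67.2 ± 1.84 FPKM. It was also the gene that fell in RD, with means of 166.6 and 136.6 FPKM. The fold change was lower in Rh30 than in RD for 6 of the 9 by the interaction test and higher for 0. Among the 7 members whose upstream windows were searched, LOX and PLOD2 held ACGTG. These were called up in RD and down in Rh30, although the call of PLOD2 in Rh30 was lost in 7 of 14 alternatives. The element and this list were chosen with results of these data known, so this match cannot serve as a test. LOXL2, which fell in both lines, was not searched. The part of low oxygen or of its factors was not tested.

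**Figure D4:**
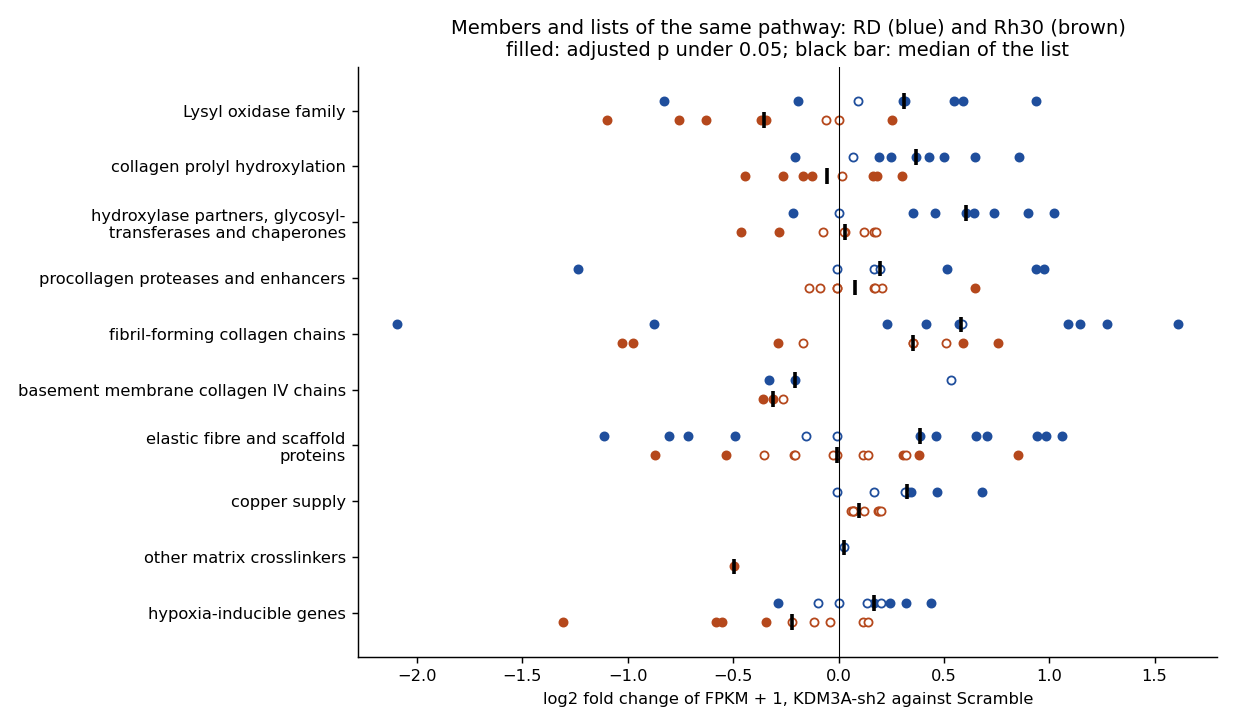
Log2 fold change of FPKM + 1 with KDM3A-sh2 for the 8 members and for each gene of the pathway lists, in RD (blue) and Rh30 (brown), filled where the adjusted p was under 0.05, with a black bar at the median of each list. The median of the partners and chaperones is 0.61 in RD and 0.03 in Rh30, and collagen IV is the list in which the called genes fell in both lines.

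Genes that ran most like each lysyl oxidase were taken from the 11009 genes whose mean reached 10 FPKM, by the mean absolute difference of centred log2(FPKM + 1) over the 12 libraries. This is a description over 4 groups of libraries, and it carries no test. Among the 3 genes nearest to LOX were IGFBP3, a binding protein of insulin-like growth factors (0.24), and DKK1, an inhibitor of Wnt signalling (0.263). DKK1 had means of 183.0, 248.8, 1.92 and 1.79 FPKM in RD Scramble, RD KDM3A-sh2, Rh30 Scramble and Rh30 KDM3A-sh2. It was not called in Rh30 (log2 fold change -0.07, adjusted p = 0.75 from limma), where LOX fell. IGFBP3 had means of 52.0, 92.8, 0 and 0.15 FPKM in the same order. It reached the minimum of 10 FPKM through RD alone and was not tested in Rh30. Nearest to LOXL2 was VCAN, the proteoglycan versican, at 0.0714, with means of 111.4, 92.7, 61.8 and 28.5 FPKM in the same order, and NNMT (0.11) was also among its 3 nearest. LOXL3 was followed most closely by CCDC80 (0.132), a matrix protein, then CTXN1 and SMAGP, and LOXL4 by ZC3HAV1 (0.108), APOE and ITPRIPL2. LOXL1 had GRINA (0.0678), CDR2L and MACF1 as its nearest genes.

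Several members share bases with other genes, and whether strand was used in counting is not stated in the Methods or the labels. On GRCh38 in GENCODE 29, LOX lies on the minus strand of chromosome 5 from 122063195 to 122078360. It shares 138 of 5547 exon bases with SRFBP1 on the other strand, which was at 13.0 and 12.7 FPKM in the Rh30 groups, above LOX itself, and did not pass the test (adjusted p = 0.885 in Rh30 and 0.132 in RD). LOXL3 (chromosome 2, minus strand, 74532414 to 74555690) shares 625 of 4363 exon bases with HTRA2, which was at 60.4 and 62.1 FPKM in Rh30 (adjusted p = 0.495), while LOXL3 fell from 20.7 to 11.9 FPKM. It shares a further 216 with DOK1 on the other strand, which was at 58.3 FPKM in RD Scramble and 2.84 FPKM in Rh30 Scramble, and so was lower in Rh30 as LOXL3 was. LOXL1 (chromosome 15, plus strand, 73925989 to 73952137) shares 335 of 3637 exon bases with LOXL1-AS1, and PLOD3 (chromosome 7, minus strand, 101205977 to 101218420) shares 429 of 5671 with ZNHIT1, which rose in RD as PLOD3 did (log2 fold change 0.23, adjusted p = 0.00232). LOXL2 (chromosome 8, minus strand, 23297189 to 23425328) shares 120 of 5707 exon bases with ENTPD4 on its own strand, which rose in RD (0.44) and did not pass in Rh30 (-0.11, adjusted p = 0.118), where LOXL2 fell. It shares 178 with AC090197.1 on the other strand, which was at 1.43 and 3.97 FPKM in RD and at 2.31 and 4.49 FPKM in Rh30, and rose in both lines (adjusted p = 0.00134 and 0.00699). LOXL4 (chromosome 10, minus strand, 98247690 to 98268250), PLOD1 (chromosome 1, plus strand, 11934205 to 11975538) and PLOD2 (chromosome 3, minus strand, 146069440 to 146163653) share no exon bases with a gene above 1 FPKM. How far shared reads entered any of these values was not tested.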

How the data were processed

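RNA of 12 libraries in 4 groups (RD or Rh30, Scramble or KDM3A-sh2, 3 libraries each) was taken from 1 table of FPKM values that the authors deposited. Per the submitters' processing notes, reads were handled with GSNAP, SAMtools and Cufflinks on GRCh38. The annotation release and the use of strand are not given in the sources used here. FPKM divide by library size and gene length, so no count test was run, and depth is known only as a relative estimate. Of 66095 entries, 120 repeats of a gene identifier were left out (of each set, the one with the highest mean stayed), and the value 999999999, present in 17 genes and in none of the 8 members, was treated as missing.

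Genes whose mean over the fitted libraries reached 1 FPKM were tested on log2(FPKM + 1) with limma 3.58.1 (R 4.3.3, empirical Bayes with trend), two-sided, with Benjamini-Hochberg adjustment over all genes of the fit and a threshold of 0.05. Each line was fitted against its own Scramble libraries, the lines were compared in their Scramble libraries, and the interaction term was fitted over 12 libraries. The comparisons share libraries, so their calls are not independent. The smallest p of an exact two-sided permutation test of 3 against 3 libraries is 0.1, and members without overlap have that value. The fit was tested on simulated data. Within groups, libraries correlated at 0.9937 to 0.9947 across genes, and no pair was identical. Alternatives were another pseudocount (0.1), other filters, other scalings, an ordinary linear model on unlogged FPKM, the replicate number as a block and leaving out single libraries.

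The members and lists were chosen with earlier results of these data known. Named were all members, KDM3A, the 2 called genes with the largest change per list and line, and the 3 genes most like each lysyl oxidase, of which some are not reported here. Python 3.11.15, pandas 2.3.3, NumPy 2.4.6 and matplotlib 3.10.9 were used. Gene positions come from GENCODE 29 and upstream sequences from RefSeq (GRCh38.p14), with 7 of 8 members matched.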

Additional observations from a re-analysis of the deposited data

Results flagged for a closer look

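The KDM3A-sh2 effect differed between the lines by limma's interaction test in each of the 8 members and in KDM3A. Subtracting the log2 fold change of RD from that of Rh30 gave -1.56 for LOX (adjusted p = 4.49e-06), -0.90 for LOXL2 (7.41e-06), -0.85 for LOXL3 (4.71e-05), -0.66 for PLOD2 (0.00155), -0.55 for LOXL1 (0.00609), -0.36 for PLOD3 (0.00208) and -0.34 for PLOD1 (0.0048). It was 0.46 for LOXL4 (0.000322) and 0.37 for KDM3A (0.0387), but the call of KDM3A was lost in 12 of 19 alternative analyses. LOX and PLOD2 rose in every RD KDM3A-sh2 library relative to every Scramble library and fell in every Rh30 one. Each line was grown in its own medium and represents its subtype alone, so line, medium and subtype cannot be told apart.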

How the results depend on the processing

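Of 478 values of the members under alternatives, 459 kept direction and call, 13 lost a call, 0 gained one and 6 changed sign. The 6 were all LOXL1 in Rh30, at -0.023 on the TPM scale, -0.0083 with equal medians and negative in 4 of the fits without single libraries. Without single libraries it ranged from -0.057 to 0.094 in all, and none passed the threshold.

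In Rh30 the members called lower numbered 3 with a minimum of 10 FPKM, at which LOX and LOXL4 were not tested. Those called higher numbered 0 with a linear model on unlogged FPKM, 0 with the replicate block and 0 to 1 without single libraries. All genes called higher there went from 2721 to 1799 with the block and to between 1622 (without KDM3A-sh2 replicate 1) and 2128 without single libraries. PLOD2 in RD had an adjusted p of 0.0504 on unlogged FPKM.

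On the TPM scale the median member was at 127.0, 158.6, 41.6 and 33.8 in RD Scramble, RD KDM3A-sh2, Rh30 Scramble and Rh30 KDM3A-sh2, against 157.4, 192.0, 55.6 and 46.0 FPKM. This shift follows from dividing each FPKM by the sum of its library. The cause of the other shifts was not tested, apart from the genes that a minimum of 10 FPKM removes. Replicate numbers did not pair libraries (deviations of same-numbered libraries correlated at -0.074 to 0.056), and the replicate block moved PLOD1 in Rh30 to an adjusted p of 0.0502. FPKM carry no counts, which limits what can be said of LOX and LOXL4 in Rh30.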

Other observations

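The partners and chaperones of the lysyl hydroxylases were already lower in Rh30 than in RD with Scramble. This was called for 8 of 9 genes, against 39.6% of all genes tested. The median log2 difference of the list was -1.06, against -0.04 for all genes. COLGALT1, the main collagen galactosyltransferase, was the exception, at 109.2 FPKM in RD and 107.2 FPKM in Rh30 (log2 difference -0.03, adjusted p = 0.646 from limma), and was named after its values were seen. With KDM3A-sh2 it rose in RD to 182.9 FPKM (0.74 on the log2 scale, adjusted p = 2.97e-05). In Rh30 it was at 116.7 FPKM (0.12, adjusted p = 0.0801). The immunophilins FKBP7 and FKBP9, named in the same way, rose in RD from 75.9 to 116.1 FPKM and from 140.8 to 220.7 FPKM, and were at 35.9 and 36.7 FPKM and at 61.3 and 62.5 FPKM in Rh30. The muscle markers moved in both directions. In RD, CHRNA1, a subunit of the acetylcholine receptor (1074 to 1436 FPKM), and DES, desmin (796.1 to 931.6 FPKM), rose, while the myogenic factors MYOD1 (133.8 to 112.8 FPKM, adjusted p = 0.00383) and MYOG (184.4 to 167.3 FPKM, adjusted p = 0.049) fell. In Rh30, MYOG (690.6 to 1017 FPKM) and MYOD1 (769.7 to 930.5 FPKM, adjusted p = 0.0222) rose and CHRNA1 fell (456.3 to 291.9 FPKM), while DES was at 403.8 and 370.6 FPKM (adjusted p = 0.175). MYF5 was too low to be tested.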
